A study of Mus musculus with 36 samples.

Results

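The genes described here are 10 markers of brain endothelial cells, the cells that line blood vessels: Cldn5, Flt1, Pecam1, Cdh5, Ly6c1, Kdr, Tek, Emcn, Slco1a4 and Abcb1a. They were chosen by gene symbol, and all 10 were found once each among the 36172 gene entries of the deposited table. RNA was measured by sequencing in the hippocampus of Cx3cr1-NuTRAP mice, a genotype that all 36 libraries share. In these animals the Cx3cr1 promoter, active in microglia and border macrophages, drives a cre recombinase that tamoxifen induces. The cre turns on a GFP tag on ribosomes, and an antibody to GFP then pulls down RNA bound to them (translating ribosome affinity purification, TRAP). The young early group was 6 months old and induced early, with 10 whole-tissue input libraries from 5 females and 5 males. The old early group was 22 months old and induced early, with 12 inputs from 7 females and 5 males. The old late group was 22 months old and induced late, with 7 inputs from 5 females and 2 males and a TRAP library from each of the same 7 animals. The labels give no age in numbers for early or late induction, and pulldowns from early-induced animals were not analysed here.

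Brain endothelial cells form the blood-brain barrier. Claudins and cadherins seal the contacts between neighbouring cells, and transporters in the cell membrane decide what passes from blood to tissue or is pumped back. Signals through the receptors of vascular endothelial growth factor (VEGF) and of angiopoietin set vessel growth and stability. Endothelial cells are not among the cells in which the Cx3cr1 promoter is known to be active in brain, so the pulldown comparison gives the level of these transcripts in a preparation aimed at other cells. In whole-tissue RNA, a change in the number of endothelial cells and a change in RNA per cell cannot be told apart.

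Library totals lay between 12.9 and 20.4 M estimated counts, and all 10 genes passed the filter on low counts in every comparison. Levels are given as CPM, counts divided by the library's total, set to a common scale over all 36 libraries. Cx3cr1, the driver gene, averaged 25 ± 2.01 CPM in young inputs (SD, n = 10), 34.5 ± 2.04 in old early inputs (SD, n = 12), 39.9 ± 5.09 in old late inputs and 688 ± 134 in TRAP (SD, n = 7 each). Acta2, a smooth muscle gene, was listed at 0 in all libraries. Library index numbers in the labels ran from 1 to 23 in old early animals, from 25 to 38 in old late animals and from 39 to 57 in young animals, so in inputs the index number cannot be told apart from the group.

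In the deposited table's coordinates, which the submitters' processing notes place on mm10, the junction and adhesion genes lie at chr16:18776847-18778262 (Cldn5), chr8:104101625-104144502 (Cdh5) and chr11:106654218-106715281 (Pecam1). The receptors lie at chr5:147562196-147725988 (Flt1), chr5:75933270-75978428 (Kdr) and chr4:94739300-94874939 (Tek). The transporters lie at chr6:141805440-141856171 (Slco1a4) and chr5:8660092-8748570 (Abcb1a), and the surface genes at chr15:75044018-75048837 (Ly6c1) and chr3:137341078-137431069 (Emcn). None of the 10 overlaps another entry of the table.

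Expressed per kilobase of the longest protein-coding transcript in GENCODE M21, the highest young input level was that of Ly6c1, which encodes a surface protein anchored by a lipid, at 11.6 CPM per kb. Cldn5, the claudin of the barrier's tight junctions, followed at 9.68 CPM per kb. The remaining 8 genes lay between 0.9 CPM per kb for Emcn, which encodes a mucin-like surface protein of capillaries and veins, and 3.05 for Pecam1, which encodes an adhesion molecule of endothelial contacts and of leukocytes. In TRAP the per-length level was highest for Cldn5 (33 CPM per kb), followed by Ly6c1 (29), Pecam1 (10.4) and Flt1 (8.08), and lowest for Emcn (1.81). All of these are levels within a group, not differences between groups.

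Upstream sequences are shown for 4 genes that differed in their pattern. Cldn5 and Kdr rose in the inputs of both old groups, Flt1 had the highest pulldown ratio of the genes with an upstream window in the RefSeq table, and Emcn was the 1 gene that did not pass the test in the pulldown. The 250 bases before the annotated start are printed 5′ to 3′ on the gene's strand from RefSeq, build GRCm38.p6, at chr16:18776597-18776846 (plus strand), chr5:75978456-75978705 (minus), chr5:147726012-147726261 (minus) and chr3:137340828-137341077 (plus). Capitals mark matches to AGGAAG or its reverse complement CTTCCT, letters that many ETS transcription factors, a family active in endothelial cells, recognise.
Cldn5: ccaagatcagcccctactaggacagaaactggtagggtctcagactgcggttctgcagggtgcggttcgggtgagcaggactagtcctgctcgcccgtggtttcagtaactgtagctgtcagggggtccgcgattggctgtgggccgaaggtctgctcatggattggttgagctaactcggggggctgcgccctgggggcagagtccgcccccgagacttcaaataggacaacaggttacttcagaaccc
Kdr: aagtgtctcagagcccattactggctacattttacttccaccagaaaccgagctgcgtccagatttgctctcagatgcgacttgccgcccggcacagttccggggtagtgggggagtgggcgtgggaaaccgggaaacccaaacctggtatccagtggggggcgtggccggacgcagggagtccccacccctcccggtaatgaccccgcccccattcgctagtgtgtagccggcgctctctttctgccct
Flt1: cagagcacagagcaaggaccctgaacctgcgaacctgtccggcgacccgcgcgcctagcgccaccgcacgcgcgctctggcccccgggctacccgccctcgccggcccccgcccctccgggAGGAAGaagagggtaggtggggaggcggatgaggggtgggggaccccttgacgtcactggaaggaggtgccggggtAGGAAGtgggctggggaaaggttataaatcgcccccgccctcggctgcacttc
Emcn: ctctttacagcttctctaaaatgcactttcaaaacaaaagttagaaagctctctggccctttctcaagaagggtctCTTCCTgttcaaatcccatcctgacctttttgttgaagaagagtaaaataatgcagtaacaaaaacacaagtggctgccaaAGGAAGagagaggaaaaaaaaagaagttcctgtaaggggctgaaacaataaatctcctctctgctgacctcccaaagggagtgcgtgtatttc
Of the 8 genes with a window in that table, 5 held the letters in any of their windows (9 in all, of which 5 held them). The letters were in 29.5% of the 32851 upstream windows of this length. For Abcb1a the RefSeq start is 93001 bases from that in the deposited table. Flt1 and Emcn held them and Cldn5 and Kdr did not, which is a description of these letters and not of binding. Other letters that ETS factors may recognise were not searched. The TATAAA letters, searched on both strands, were in the windows of 2 of the 8 genes and in 12.4% of all windows.

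The first comparison asked how the levels of the 10 genes in the pulldown differed from those in input in old late animals. Higher levels in TRAP than in input were found for 9 of the 10 genes in edgeR (quasi-likelihood test, Benjamini-Hochberg adjusted p below 0.05), and no gene was lower, also at an unadjusted p under 0.05 or by DESeq2 or limma voom. Of all 14596 genes tested, 30.4% were called higher and 28.8% lower. The median log2 fold change was 1.07 over the 10 genes and -0.02 over all genes. Upper quartile scaling moved the median of all genes to -0.16 and the split from 4442 higher and 4198 lower to 3280 and 6372, and scaling by library size alone gave 3564 and 5748 with a median of -0.13. The same 9 endothelial genes were called under both, with medians of 0.92 and 0.96. TRAP exceeded the input of the same animal in all 7 animals for 9 of the genes, which was the case for 27.4% of all genes tested. All 10 log2 fold changes were above 0, as were 47.9% over all genes. Every TRAP library lay above every input for 6 genes, against 19.6% of all genes.

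Among the adhesion and junction genes, Pecam1 had the highest ratio. Its inputs lay at 7.40 CPM at the lowest, 11.3 at the median and 13.2 at the highest, and its TRAP libraries at 27.5, 32.6 and 48.3 CPM in the same order. The TRAP range lay wholly above the input range. Its log2 fold change was 1.70 ± 0.11 (SE, adjusted p = 1.29e-09 in edgeR). Cdh5, the cadherin of endothelial adherens junctions, ran from 3.93 to 7.85 CPM in input with a median of 5.42, and from 10.4 to 14.8 in TRAP with a median of 12.1. These ranges did not overlap either, and the log2 fold change was 1.07 ± 0.15 (SE, adjusted p = 1.28e-05 in edgeR). Cldn5 ran from 15.6 to 34 CPM in input (median 21) and from 32.4 to 66.1 in TRAP (median 44.1). The highest Cldn5 input, replicate 5, lay above the lowest TRAP library, and replicate 5 was also the highest in TRAP. The log2 fold change of Cldn5 was 1.07 ± 0.20 (SE, adjusted p = 0.000192 in edgeR).

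Among the receptors, Flt1, a VEGF receptor that is also made by macrophages, was at 16.8, 18.2 and 19.2 CPM in input (lowest, median and highest) and at 43.6, 58.7 and 67.9 in TRAP. Its inputs averaged 18.1 ± 0.94 CPM (SD, n = 7) and did not overlap with TRAP. Its log2 fold change was 1.61 ± 0.09 (SE, adjusted p = 6.99e-11 in edgeR). Kdr, the main signalling receptor for VEGF in endothelium, ran from 6.68 to 11.6 CPM in input (median 8.97) and from 11 to 19.3 in TRAP (median 14.6). Its ranges overlapped, and its log2 fold change was 0.70 ± 0.14 (SE, adjusted p = 0.000441 in edgeR). Tek, the angiopoietin receptor also called Tie2, ran from 4.04 to 7.56 CPM in input (median 4.45) and from 8.52 to 19.6 in TRAP (median 11.4). Its groups did not overlap, with a log2 fold change of 1.23 ± 0.19 (SE, adjusted p = 2.98e-05 in edgeR).

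Both transporters passed the test. Abcb1a, which encodes the drug efflux pump P-glycoprotein, was at 8.30, 10.8 and 12.8 CPM in input and at 16.6, 19.5 and 27.9 in TRAP, without overlap. Its log2 fold change was 0.89 ± 0.10 (SE, adjusted p = 1.15e-06 in edgeR). Slco1a4, an organic anion transporter of the barrier, was at 9.04, 11.3 and 15.4 CPM in input and at 10.6, 16.6 and 29.3 in TRAP. These ranges overlapped, and the log2 fold change was 0.56 ± 0.14 (SE, adjusted p = 0.00209 in edgeR).

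Of the remaining surface genes, Ly6c1 was at 8.31, 10.8 and 11.2 CPM in input and at 21.1, 23.7 and 30 in TRAP. The groups were fully apart, with a log2 fold change of 1.28 ± 0.08 (SE, adjusted p = 5.73e-10 in edgeR). Emcn was at 2.37, 3.95 and 5.12 CPM in input and at 2.55, 3.84 and 9.81 in TRAP. The TRAP median of Emcn lay below the input median, and its log2 fold change of 0.26 ± 0.19 did not pass the test (SE, adjusted p = 0.25 in edgeR). Its counts were the lowest of the 10 genes, between 39 and 83 per library in these inputs and between 38 and 138 in TRAP.

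Close copies touch 2 of these values, because the deposited counts are fractional, so reads can be split among entries. The longest protein-coding transcripts of Ly6c1 and Ly6c2, a gene of monocytes, were identical at 97.6% of 822 aligned bases. Ly6c2 averaged 0.979 ± 0.384 CPM in input and 1.94 ± 0.45 in TRAP (SD, n = 7 each). Abcb1a and Abcb1b were identical at 87.6% of 4005 aligned bases, and Abcb1b averaged 3.82 ± 0.869 CPM in input and 10.4 ± 2.47 in TRAP (SD, n = 7 each). How reads were shared within each pair is not given in the sources used here.

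**Figure D1:**
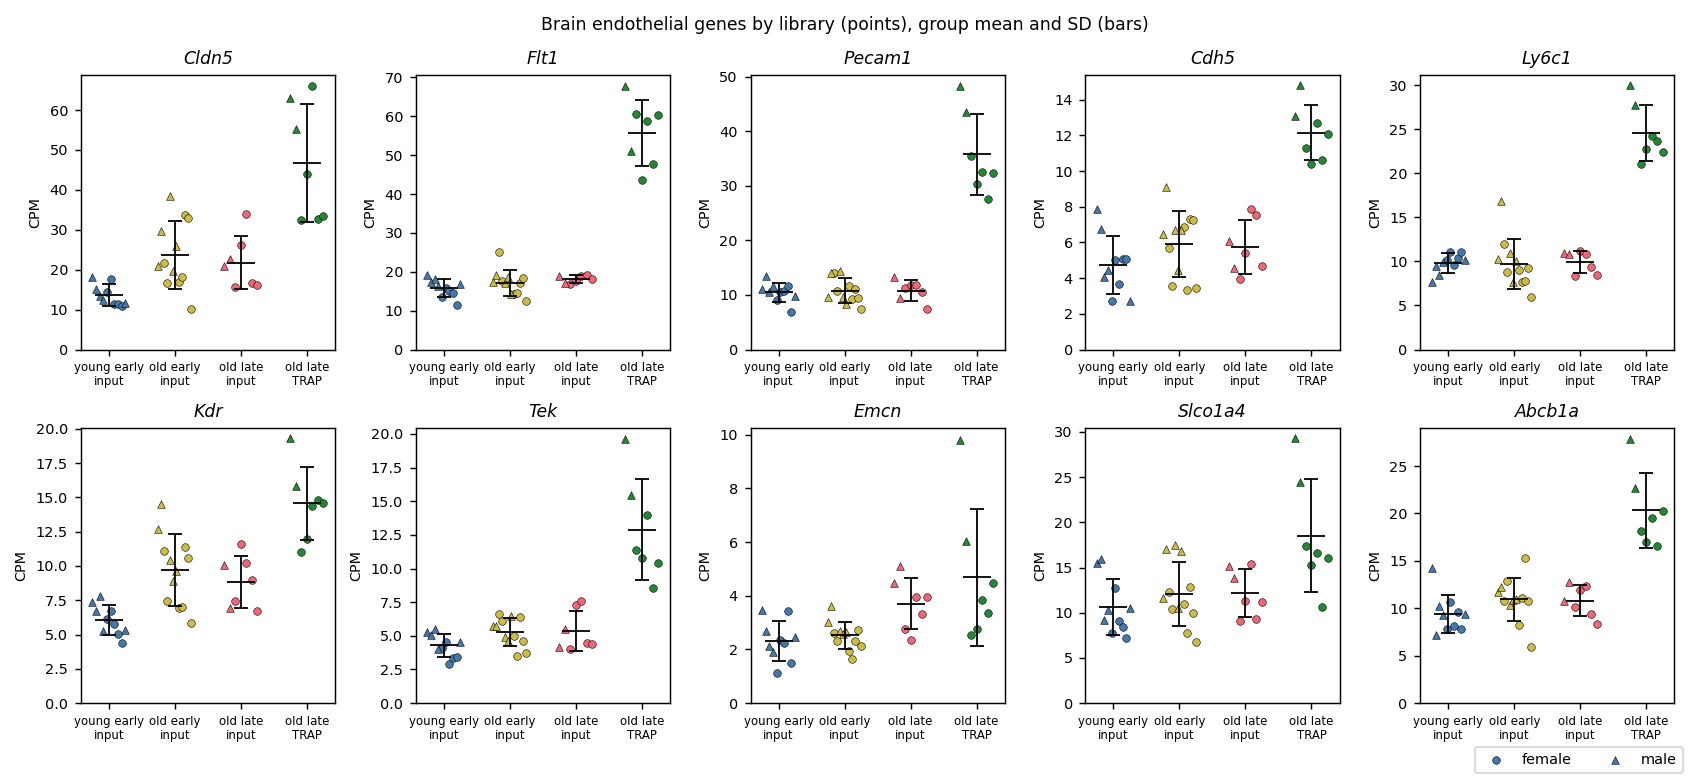
CPM of each of the 10 endothelial genes (one panel a gene, linear axis from 0) in every library of the 4 groups, with circles for females, triangles for males and bars for the group mean and SD. TRAP libraries lie above all inputs of the same animals' group for 6 genes, and Cldn5 and Kdr lie higher in both old input groups than in the young group, with overlap.

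The ratio of TRAP to input was then taken within each animal, as a difference of log2 CPM with a prior count of 2. By mean ratio the order was Pecam1 (1.71 ± 0.35), Flt1 (1.60 ± 0.23), Ly6c1 (1.29 ± 0.15), Tek (1.25 ± 0.54), Cdh5 (1.10 ± 0.43), Cldn5 (1.09 ± 0.26), Abcb1a (0.90 ± 0.31), Kdr (0.72 ± 0.39), Slco1a4 (0.56 ± 0.34) and Emcn (0.23 ± 0.41), each as log2 with the SD over 7 animals. On the linear scale these means run from 3.27-fold for Pecam1 to 1.17-fold for Emcn. None of the 9 pairs of neighbours in this order differed after adjustment over the pairs in an exact two-sided sign-flip permutation test. The smallest unadjusted p was 0.0312 for Flt1 over Ly6c1, higher in 6 of 7 animals by 0.31 ± 0.18 (SD), with an adjusted exact p of 0.234. With 7 animals the smallest p such a test can give is 0.0156. After adjustment over 9 pairs, 1 pair alone at that value could not pass. The pairs were also taken from the order of these same ratios. For both reasons the test does not settle the order of neighbours. The driver gene Cx3cr1 had a log2 ratio of 4.09 ± 0.23 (SD, n = 7), and 0 of the 10 endothelial genes reached it in any animal.

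The ratio differed between animals in the same sense for most of the genes. The ratio was highest in animal 1 for 7 genes and in animal 2 for the other 3, and these are the 2 males. Animal 4, a female, had the lowest ratio for 7 genes. Averaged over the 10 genes, the log2 ratio was 1.44 and 1.25 in animals 1 and 2 and 1.10, 0.71, 0.80, 0.81 and 1.19 in animals 3 to 7, while the median over all genes tested lay between -0.02 and 0.02 in each animal. With 2 males this difference was not tested. Emcn reached a log2 ratio of 1.11 in animal 1 and lay between -0.11 and 0.23 in the other 6 animals.

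**Figure D2:**
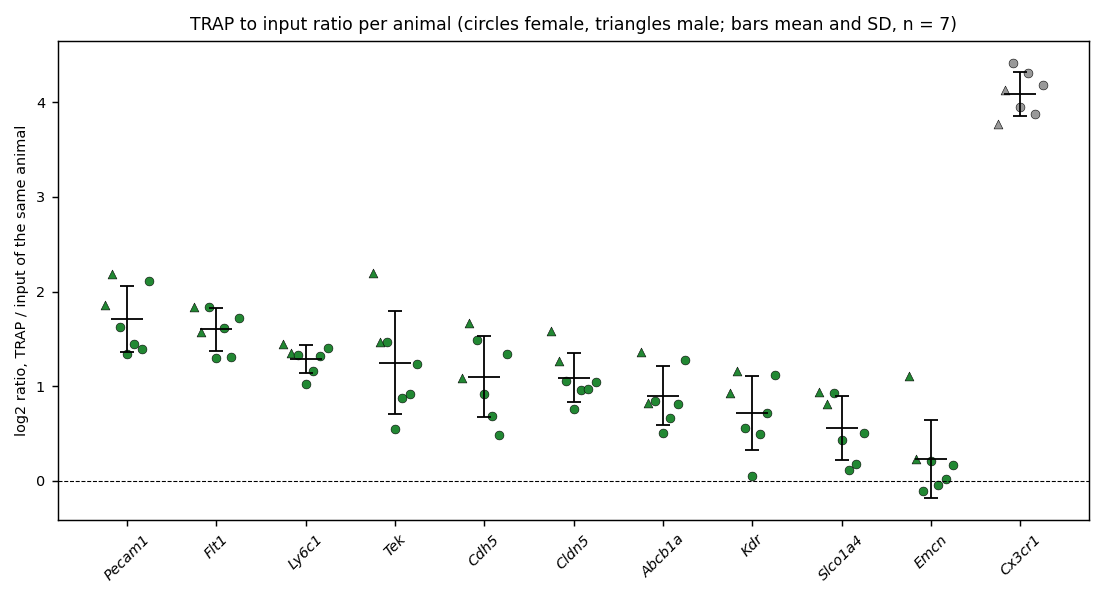
Log2 ratio of TRAP to input CPM within each of the 7 old late animals (points, circles female and triangles male) with the mean and SD (bars), for the 10 endothelial genes in order of their mean and for Cx3cr1. The means fall from 1.71 for Pecam1 to 0.23 for Emcn, and all points of Cx3cr1 lie above all points of the endothelial genes.

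A further 101 genes were listed by their role in endothelium or in its signals, not by cell type, and 98 of them were tested in this comparison. Of these, 54 were higher and 14 lower in TRAP, with a median log2 fold change of 0.35, and upper quartile scaling gave 45 higher and 19 lower. Several of them are also made by microglia or macrophages, among them F11r, Slco2b1, Tal1, Eng and Icam1. Others are ligands, such as Angpt1 and Ndp. In old late inputs Ctnnb1 (478 CPM) and Epas1 (145) lay far above Cldn5 (21.7), the highest of the 10 genes. The levels of these lists therefore do not speak for endothelium alone. Among the 12 junction genes 10 were higher, led by Cgn (log2 fold change 5.22), Cgnl1 (4.78) and F11r (3.54), and Jam3 was lower (-0.62). Cgn and Cgnl1 lay above the median of a list of microglia genes (4.28). Cgnl1 varied widely in TRAP, at 535 ± 373 CPM (SD, n = 7). Which cells the RNA of Cgn and Cgnl1 came from was not tested. Among the 16 transporters 8 were higher, led by Slco2b1 (3.91), Abcb1b (1.43) and Abcg2 (1.08), an efflux pump, while Tfrc (-0.50), the transferrin receptor, and Slc16a1 (-0.39), a lactate transporter, were lower. Among the 16 genes of VEGF, angiopoietin and Notch signalling 10 were higher, led by Eng (2.40), Acvrl1 (1.85) and Tie1 (1.45), and Angpt1 (-0.97), a ligand of Tek, was lower.

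Of the 12 transcription factors, 8 were higher, led by Tal1 (2.48), Sox17 (1.46) and Erg (1.29), and Epas1 (-0.27) was lower. Of the 18 surface and secreted genes, 12 were higher and 0 lower (1 lower at an unadjusted p under 0.05, by DESeq2 and with the animal as a block), led by Cd34 (2.09), Cd93 (1.72) and Ly6e (1.57). The arterial list had 7 of 8 genes tested, with Gkn3 (2.31), Sema3g (2.11) and Bmx (1.79) higher and Efnb2 (-0.45) and Hey1 (-0.33) lower. Bmx averaged 0.442 CPM in input and 1.59 in TRAP and was not tested in the inputs alone. It passed the filter on low counts through TRAP, so its direction was partly fixed by the filter. The venous and activation list had 6 of 8 genes tested, with Icam1 (2.96) higher and Nr2f2 (-0.50) and Plvap (-0.34) lower. In the Wnt pathway of barrier formation, Lrp5 (2.16) and Reck (0.33, not called under upper quartile scaling, at 0.18) were higher and 5 of 11 genes were lower, with Ndp (-0.88) and Tspan12 (-0.67) the lowest.

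Markers of other cells were read in the same libraries. All 12 microglia genes and all 8 border macrophage genes were higher in TRAP, with median log2 fold changes of 4.28 and 3.83. The summed level of the microglia list ran from 634 to 926 CPM in input and from 11300 to 18100 in TRAP, and that of the border macrophage list from 23.4 to 54.5 and from 388 to 652. Of the 12 pericyte and smooth muscle genes, which mark the cells that wrap the same vessels, 10 were tested, of which 0 were higher and 4 were lower (7 lower without animal 1), with summed levels of 116 to 144 CPM in input and 70.0 to 133 in TRAP. At an unadjusted p under 0.05 and by DESeq2 and limma voom, 0 of the 10 were higher as well. The called genes were Vtn, Tagln, Kcnj8 and Pdgfrb. All 8 oligodendrocyte genes (median -1.30), 7 of 8 astrocyte genes (-0.43) and 6 of 8 fibroblast genes (-1.24) were lower. All 5 tested red blood cell genes (median -2.30), 5 of 8 choroid plexus genes (-1.88) and 4 of 8 neuronal genes (-0.17) were lower as well. The choroid plexus count was 1 in limma voom and 2 with females only, and 8 without animal 3 or animal 4. Of 6 monocyte and neutrophil genes 2 were tested, Ccr2 and Ly6c2, and both were higher (median 1.51). Ccr2 averaged 0.313 CPM in input and 1.33 in TRAP and was not tested in the inputs alone. It passed the filter on low counts through TRAP, which partly fixed its direction. Among those not tested, S100a8 (0.575 CPM in input, 0.0779 in TRAP), S100a9 (0.944, 0.231) and Retnlg (0.172, 0.0347) averaged lower in TRAP. Plac8 averaged 0.075 and 0.0971. Nothing is read from this list about these cells. Which cells the endothelial transcripts in TRAP came from was not tested, and no pulldown from animals without the tag was analysed here.

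**Figure D3:**
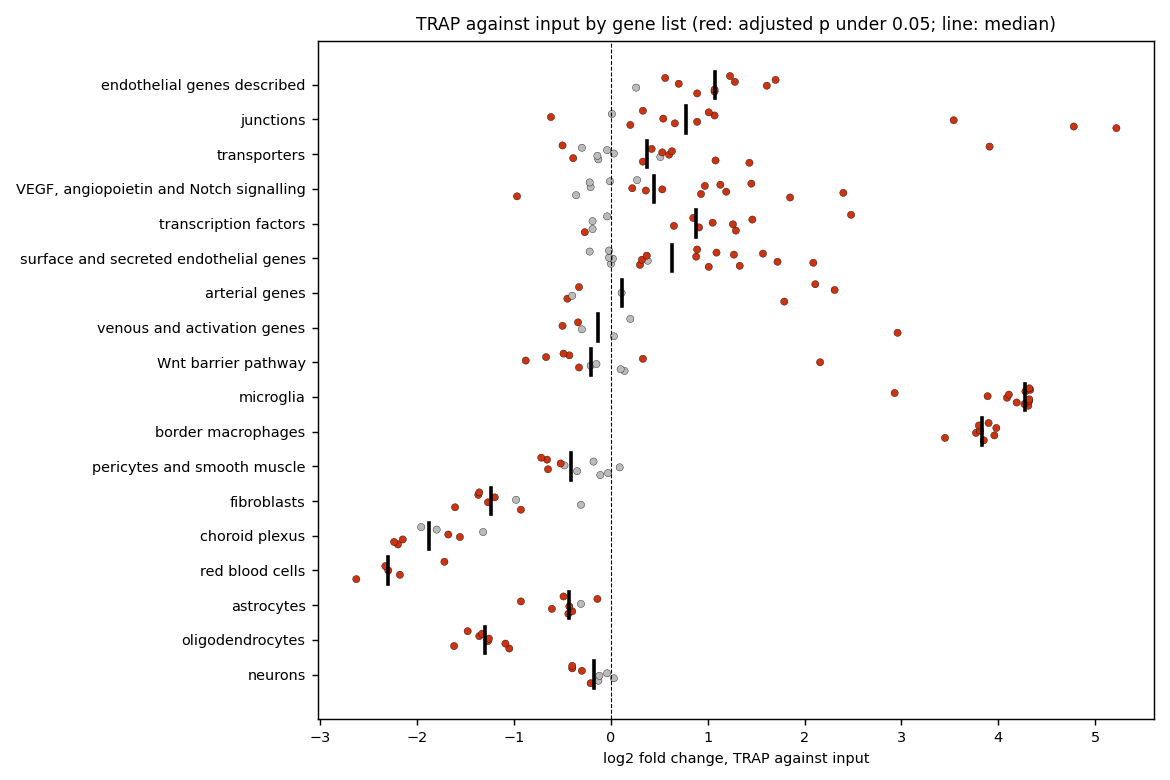
Log2 fold change of TRAP against input for every tested gene (points) of the 10 endothelial genes, the other endothelial lists and the lists of other cell types, with red for an edgeR adjusted p under 0.05 and a line at each list's median. The 10 endothelial genes have a median of 1.07, the microglia list lies at 4.28 and the pericyte and smooth muscle list at -0.41.

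The second comparison asked how endothelial transcripts in the whole tissue of each old group differed from young animals. Old late animals differ from young animals in both age and induction, and in that comparison these cannot be told apart. Cldn5 and Kdr rose in old early animals, and Cldn5, Kdr and Emcn rose in old late animals, while none of the 10 genes fell in either, also at an unadjusted p under 0.05 or by DESeq2 or limma voom. In old early against young inputs 2 of 10 were called, where 13% of all 14948 genes were called higher and 12.6% lower, and the median log2 fold change was 0.22 over the 10 genes and 0.01 over all. In old late against young inputs 3 of 10 were called, where 17% of all genes were called higher and 17.5% lower, and the medians were 0.33 and 0.01. Of the 10 log2 fold changes, 9 were above 0 in old early animals (51.8% of all genes) and 10 in old late animals (52.0%). For 0 of the 10 genes did every old library lie above every young one, against 0.85% of all genes in the old early and 2.41% in the old late comparison. Both comparisons use the same 10 young libraries. Among 10 genes the counts called and the counts without overlap are not far from the shares over all genes. The counts of log2 fold changes above 0 are higher than the shares over all genes, but the 10 genes vary together across libraries. Nothing is read from any of these counts about the group as a whole.

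Cldn5 was at 10.9, 12.9 and 18.2 CPM in young inputs (lowest, median and highest), at 10.1, 21.3 and 38.4 in old early inputs and at 15.6, 21 and 34 in old late inputs. Both old groups overlapped the young range, and the lowest value of all was that of old early replicate 12. The log2 fold change against young was 0.81 ± 0.17 in old early animals (SE, adjusted p = 0.000809 in edgeR) and 0.72 ± 0.20 in old late animals (SE, adjusted p = 0.00492 in edgeR). With females only these fell short of the threshold, at 0.71 (edgeR adjusted p = 0.0994) and 0.73 (0.0682). Kdr was at 4.40, 5.96 and 7.82 CPM in young, 5.86, 10.0 and 14.5 in old early and 6.68, 8.97 and 11.6 in old late inputs. The old medians lay above the highest young library. Its log2 fold changes were 0.70 ± 0.13 (SE, adjusted p = 0.000215 in edgeR) and 0.61 ± 0.15 (SE, adjusted p = 0.00219 in edgeR), and it stayed called in females only and without any single library.

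Emcn was at 1.13, 2.29 and 3.46 CPM in young, 1.63, 2.60 and 3.63 in old early and 2.37, 3.95 and 5.12 in old late inputs. The old late median lay above the highest young and old early libraries. Against young its log2 fold change was 0.75 ± 0.17 in old late animals (SE, adjusted p = 0.00083 in edgeR) and 0.15 ± 0.15 in old early animals (SE, adjusted p = 0.499 in edgeR). In females only the old late value was 0.63 (edgeR adjusted p = 0.0733). The direct test of old late against old early gave 0.61 ± 0.16 (SE, adjusted p = 0.144 in edgeR), so a difference between the induction groups did not pass the threshold.

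The other 7 genes did not pass the test in either comparison. Tek had log2 fold changes of 0.32 ± 0.14 and 0.37 ± 0.16 (SE, adjusted p = 0.0763 and 0.0632, early then late in edgeR). Flt1 had 0.14 ± 0.09 and 0.24 ± 0.10 (SE, adjusted p = 0.248 and 0.0611 in edgeR), and the late value was called by DESeq2 (adjusted p = 0.0466) and limma voom (adjusted p = 0.049). Cdh5 had 0.34 ± 0.18 and 0.33 ± 0.21, Slco1a4 had 0.22 ± 0.13 and 0.32 ± 0.15, and Abcb1a had 0.23 ± 0.12 and 0.24 ± 0.14 (SE). The values closest to 0 were those of Pecam1 (0.06 ± 0.11 and 0.08 ± 0.13) and Ly6c1 (-0.01 ± 0.12 and 0.06 ± 0.14, SE). Ly6c1 averaged 9.81 ± 1.10 CPM in young, 9.70 ± 2.81 in old early and 9.97 ± 1.24 in old late inputs (SD, n = 10, 12 and 7).

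**Figure D4:**
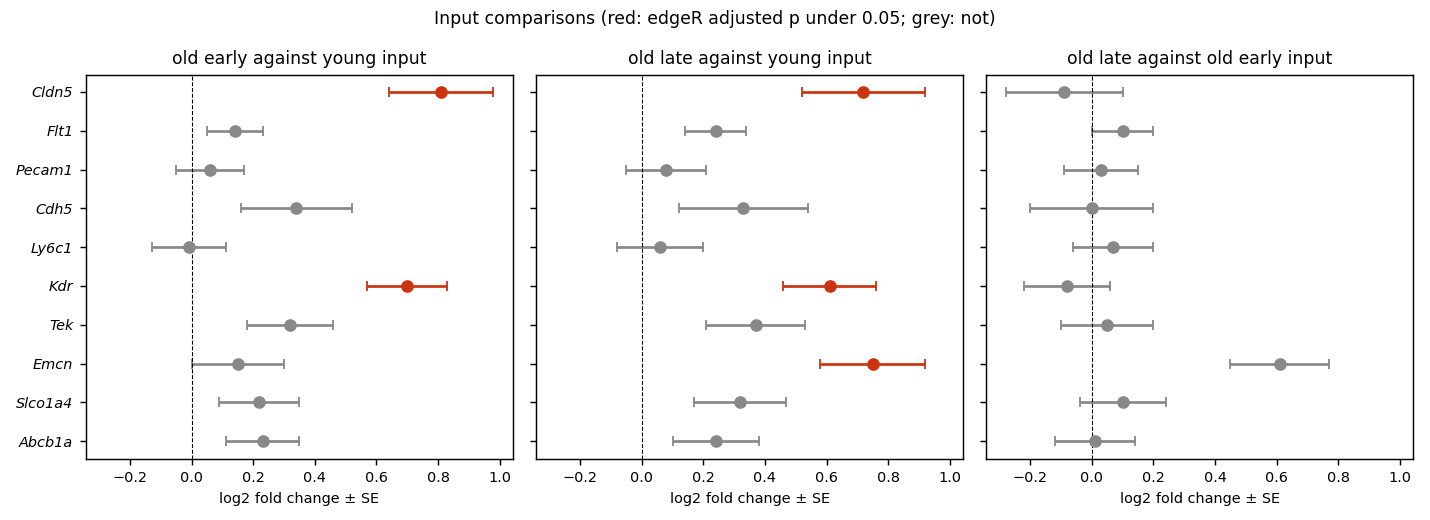
Log2 fold change with its SE for the 10 endothelial genes in the comparisons of old early with young, old late with young and old late with old early inputs, with red for an edgeR adjusted p under 0.05. Cldn5 and Kdr are red in both comparisons with young inputs, Emcn is red in that of old late with young at 0.75, and no gene is red between the old groups.

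Of the 101 other listed genes, which do not speak for endothelium alone, 97 were tested in the inputs. In old early animals 17 were higher and 5 lower, and in old late animals 25 were higher and 6 lower, with medians of 0.10 and 0.15. The 5 lower in old early animals became 2 without young replicate 2 and 3 without young replicate 1, 3 or 6. With females only the counts were 7 and 4 in old early and 17 and 3 in old late animals. Klf4 and Klf2, transcription factors that respond to blood flow, rose by 1.08 and 0.74 in old early animals and by 1.22 and 0.77 in old late animals (log2). Vwf, the clotting factor stored in endothelium, rose by 0.74 (not called by limma voom) and 0.78, Fbln5, an elastic fibre gene of arteries, by 0.97 and 1.03, and Cav1, a caveolae gene, by 0.45 and 0.54. Mfsd2a, the barrier's lipid transporter, fell by 0.70 and by 0.85 on the log2 scale. Slc16a1 rose by 0.33 and 0.41. Acvrl1 and Eng, receptors of the TGF-beta family, rose by 0.39 and 0.29 in old early animals and by 0.56 and 0.33 in old late animals. Nrp1, a co-receptor of VEGF, fell by 0.14 (not called under upper quartile scaling) and 0.24. Plvap, a gene of leaky capillaries and of veins, rose by 0.28 and 0.46. In the Wnt list Ndp, a ligand of Fzd4, rose by 0.36 and 0.43, and Axin2, a feedback target of the pathway, fell by 0.21 and 0.23. Wnt7a rose by 0.22 in old early animals, and in old late animals Fzd6 rose by 0.48 and Reck fell by 0.32. Among the junction genes Jam3 rose by 0.23 and 0.31, while in old late animals F11r rose by 0.86 and Tjp1 fell by 0.24. Icam1 rose by 0.79 and Icam2 by 0.79 in old late animals, and Clec14a rose by 0.55 in old early animals.

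Several lists of markers of other cells moved in the same inputs. None of the 8 fibroblast and 8 choroid plexus genes was called in either old group. Red blood cell genes, 5 of which were tested, were called higher for 3 genes in old early and all 5 in old late animals (with females only, 0 and 5, and in limma voom, 0 and 5), with summed levels of 143 to 346 CPM in young, 130 to 2280 in old early and 276 to 720 in old late inputs. The old early count ran from 0 to 5 as each library was left out in turn. DESeq2 gave no adjusted p for Hbb-bs in old early animals or for Hbb-bs, Hba-a2 and Alas2 in old late animals. It thus did not call these genes there. Pericyte and smooth muscle genes were higher for 2 of 10 tested in each old group (with females only, 0), with summed levels of 93.5 to 128, 96.4 to 170 and 116 to 144 CPM. All 12 microglia genes were higher in both old groups, with summed levels of 450 to 521, 601 to 720 and 634 to 926 CPM. Oligodendrocyte genes were higher for 6 of 8 in old early and 7 of 8 in old late animals, with summed levels of 3090 to 4830, 3900 to 5710 and 4170 to 6910 CPM. Astrocyte genes were higher for 3 of 8 in each old group, namely Gfap, Aldoc and Aldh1l1, with summed levels of 3750 to 4200, 4070 to 4910 and 4250 to 5140 CPM. Of 8 border macrophage genes 0 were called in old early animals. In old late animals Ms4a7 was higher (not called by limma voom) and Lyve1 was lower. Of 8 neuronal genes 1 was higher in old early and 3 were lower in old late animals (0 to 1 and 1 to 3 with 1 library left out). Of 3 monocyte and neutrophil genes tested, 1 was higher in old early and 0 in old late animals. The part of these lists in the endothelial values was not tested.

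The third comparison set early against late induction in 22-month-old inputs. None of the 10 genes passed the test in edgeR, DESeq2 or limma voom. Of all genes, 0.0334% were called in edgeR. At an unadjusted p under 0.05, 1 of the 10 genes, Emcn, and 1736 of 14948 genes differed. Apart from Emcn, the log2 fold changes lay between -0.09 ± 0.19 for Cldn5 and 0.10 ± 0.14 for Slco1a4 (SE).

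Sex was compared over all 29 inputs with group as a covariate. All 10 genes had a positive log2 fold change in males, against 50.6% of all genes. None passed the threshold in edgeR, where 0.174% of all genes were called. The genes vary together across libraries, so these are not 10 separate observations. At an unadjusted p under 0.05, 2 of the 10 genes differed, Slco1a4 and Emcn, among 1632 of all genes. Slco1a4 averaged 12.3 ± 3.20 CPM in young males and 9.02 ± 2.17 in young females (SD, n = 5 each), 14.7 ± 3.36 in old early males and 10.2 ± 2.24 in old early females (SD, n = 5 and 7), and 14.6 ± 0.919 in old late males and 11.3 ± 2.54 in old late females (SD, n = 2 and 5). The male mean was the higher in each group. The log2 fold change was 0.47 ± 0.11 (SE, adjusted p = 0.088 in edgeR), and DESeq2 called it (adjusted p = 0.0142) while limma voom did not. Emcn had 0.38 ± 0.13 (SE, adjusted p = 0.311 in edgeR).

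Libraries of the same group differed in most of the 10 genes together. In old early replicate 12, a female, 7 of the 10 genes were the lowest of the 12 libraries, and its mean log2 CPM over the genes was 2.54 against a group mean of 3.18 ± 0.30 (SD, n = 12). Old early replicate 2, a male, was the highest for 4 genes, with a mean of 3.63. In young inputs replicate 1, a male, was the highest for 5 genes and replicate 9, a female, the lowest for 5. In TRAP, replicate 1 was the highest for 8 genes. Without old early replicate 12, Cldn5 and Kdr were still called in old early animals.

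**Figure D5:**
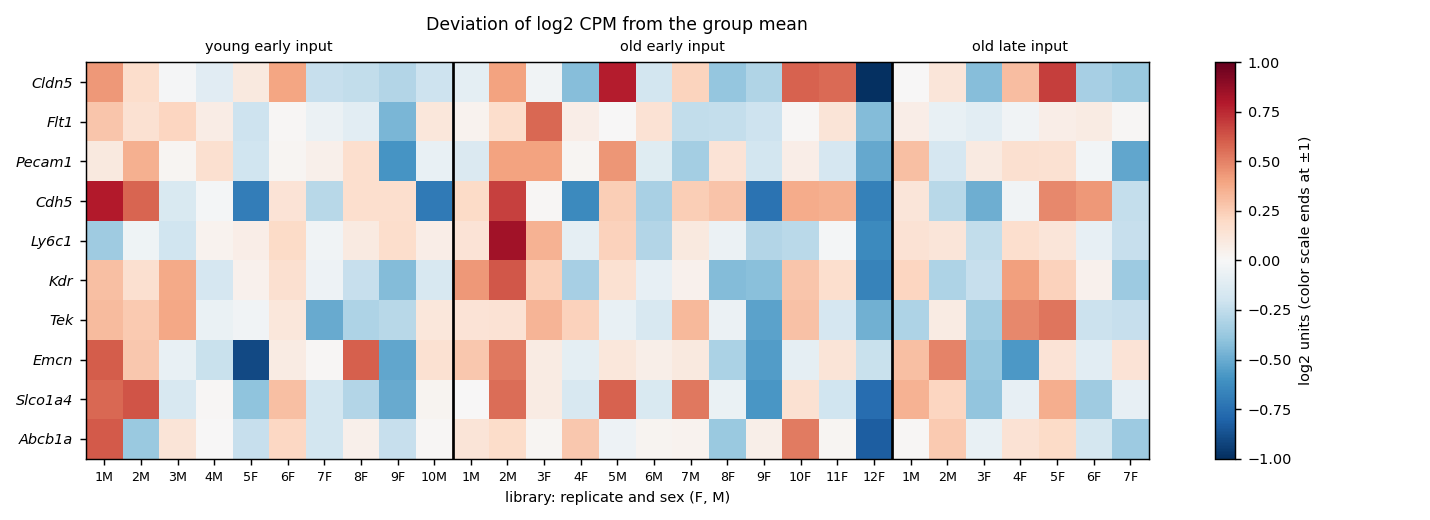
Deviation of log2 CPM from the group mean for the 10 endothelial genes (rows) in the 29 input libraries (columns, by group, replicate and sex), with red for higher, blue for lower and a color scale that ends at ±1. Old early replicate 12 is blue for all 10 genes, and old early replicate 2 and young replicate 1 are mostly red.

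As a description of this shared variation, each gene was compared with the mean of the other 9 over the 29 inputs after group means were removed. Pearson's r ran from 0.51 for Ly6c1 and Emcn to 0.83 for Slco1a4, and these points share library depth and dissection. Among 13042 other genes with an average log2 CPM over 1, the 10 most alike to the mean of the endothelial genes were Pmf1 (r = 0.80), Sox2 (0.78), Itm2a (0.75), Cxcl12 (0.75), Lef1 (0.74), Serhl (0.73), Ptprb (0.72), Msi2 (0.71), Fzd6 (0.71) and Zfp36l1 (0.71), each over 29 libraries. Of these, Itm2a, Lef1, Ptprb and Fzd6 are in the other endothelial lists. The 85 ranked genes of those lists had a median r of 0.29, and all ranked genes a median of -0.03.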

How the data were processed

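PolyA RNA of mouse hippocampus was sequenced as whole-tissue input and as anti-GFP pulldown. The deposited table gives estimated counts for each gene, marked raw per the file headers, and 77.2% of the nonzero values were not whole. The build is mm10 and DESeq2 was used, per the submitters' processing notes. The aligner and counting tool are not given in the sources used here.

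Estimated counts were rounded and tested with edgeR 4.0.16 in R 4.3.3 (filterByExpr with a minimum count of 10, TMM scaling, quasi-likelihood test), and an adjusted p under 0.05 was called. TRAP was fitted on 14 libraries and the other contrasts on 29 inputs, each with sex as a covariate. The main TRAP fit, with its SE and adjusted p, did not use the pairing by animal. With the animal as a block, 4650 of all genes were called higher and 4680 lower. TRAP and input were paired by the animal number in the labels, and their deviations from group means correlated from 0.292 to 0.439 across genes in all 7 pairs (median between animals -0.085). Libraries within a group are from separate animals.

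The 10 genes, the 195 listed genes (194 matched, 5 by identifier) and the tests were chosen with earlier results of these data known. Named besides the 10 are Cx3cr1, Ly6c2, Abcb1b, the called genes of each list with the largest changes (at most 3 a list, or all of a count of 5 or fewer) and the 10 genes most alike in pattern. Genes named beyond that were chosen after their values were seen. The tests were tested on simulated data. Alternatives used DESeq2 1.42.0, limma 3.58.1 (voom), other scalings, filters and covariates, females only, fewer groups, an animal block, and each library left out.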

Additional observations from a re-analysis of the deposited data

Results flagged for a closer look

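Emcn had a log2 TRAP to input ratio of 1.11 in old late animal 1, a male, while the next highest animal was at 0.23. The gap was 0.724 of the whole range over 7 animals, above the critical value of 0.568 for a single sample far from the others. Of 40 sets of values examined in this way this was the 1 that passed, where chance alone would flag about 2.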

How the results depend on the processing

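Over all results, 1709 of 1784 alternative values kept their direction and their side of the threshold. The count for TRAP was 9 under each alternative, including the replicate block by animal, which changed no call. With females only, 1 gene (Kdr) was called in old early and 1 (Kdr) in old late animals, where the counts over all genes fell to 638 higher and 560 lower and to 1396 and 1391. Upper quartile scaling called 5 genes in old late animals, adding Tek and Flt1, and DESeq2 called 1 gene (Slco1a4) by sex. Leaving out 1 library at a time gave 9 genes for TRAP, 2 to 3 for old early, 3 to 4 for old late, 0 for induction and 0 to 1 for sex, where Slco1a4 was called without old late replicate 5 (edgeR adjusted p = 0.0499) or young replicate 6 (0.0312). Fitting only the groups compared called Tek in old early animals (edgeR adjusted p = 0.0466) and Flt1 in old late animals (0.00988). Tek was also called in old early animals without old early replicate 9 (edgeR adjusted p = 0.0489) and in old late animals without old late replicate 1 (0.0318) or 3 (0.0469). Slco1a4 was called in old late animals without young replicate 6 (0.0338), and Flt1 without young replicate 1 (0.0457) or old early replicates 3 (0.0164) or 7 (0.048). The median over the 10 genes of their mean log2 ratio was 1.09, between 1.03 and 1.15 with 1 animal left out, 1.10 with a prior count of 0.5 and 0.98 by library size alone.

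The sign reversed only for differences near 0, none of them called. Ly6c1 was at 0.01 in old early animals under upper quartile scaling and at -0.11 in old late females. For induction Cdh5 was at 0.00 under upper quartile scaling, library size alone, DESeq2 and no filter, at 0.01 in limma voom and at 0.14 in females only, where Abcb1a was at -0.03, Kdr at 0.07 and Cldn5 at 0.02. Abcb1a was at -0.01 without the sex covariate. With 1 library left out, the values for induction ran from -0.05 to 0.08 for Abcb1a, -0.10 to 0.08 for Cdh5, -0.17 to 0.00 for Kdr, -0.02 to 0.09 for Pecam1 and -0.06 to 0.13 for Tek. In old early animals they ran from -0.11 to 0.03 for Ly6c1 and from -0.01 to 0.10 for Pecam1. The causes were not tested. Emcn rests on 19 to 138 counts per library, the lowest of the 10 genes.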
